A study of Mus musculus with 18 samples.

Results

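The muscles compared here were the soleus and the quadriceps of mice labelled as Egln1 knockouts in skeletal muscle. The question was whether the difference between a slow and a fast muscle stood in these mice. The samples were chosen by their titles, and these name 3 knockout (KO) soleus and 3 KO quadriceps arrays, which are 6 of the 18 samples of the series. Each of the 3 KO animals gave both muscles, so the arrays are paired by animal number. The KO mice carried a floxed Egln1 locus and a tamoxifen-inducible, skeletal muscle-specific Cre recombinase, had been back-crossed to C57BL/6, and were treated with tamoxifen for 3 days before the muscles were taken. The 3 wild-type (WT) mice had unmodified Egln1 with the same Cre and tamoxifen on the same background, and likewise gave both muscles. WT values stand here only beside the KO values. The labels used here carry no age or sex. The Cre is labelled as specific to skeletal muscle, so blood vessels, nerves and connective tissue in the same sample would keep Egln1.

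Egln1, also called PHD2, hydroxylates the alpha subunits of hypoxia-inducible factor (HIF) in the presence of oxygen and so marks them for destruction. Skeletal muscle is built of slow fibres, which rest on mitochondrial respiration, and fast fibres, which rest more on glycogen and glycolysis. The mouse soleus is rich in slow and fast-oxidative fibres, and the quadriceps is mostly made of fast-glycolytic fibres. Slow and fast fibres use different gene copies for myosin, troponin, tropomyosin and the calcium pump.

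Values are log2 intensities summarised by robust multi-array average (RMA), and 13319 genes were bright enough to be tested. A difference is soleus minus quadriceps on the log2 scale, ± its standard error (SE) from limma, with n = 3 animals. A gene was called where its Benjamini-Hochberg adjusted p was under 0.05. In KO mice 5578 of the 13319 genes (41.9%) were called, 2910 higher in soleus (21.8%) and 2668 lower (20%). Of these, 473 differed by over 2-fold (3.55%), 264 higher (1.98%) and 209 lower (1.57%). The arrays of the muscles did not overlap for 6203 genes (46.6%), some of which were not called. A gene list therefore has to be read against a background in which 41.9% of genes were called.

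Egln1 itself was read first, as a check of the labels. It measured 11.03, 11.07 and 11.12 in the KO soleus and 11.29, 11.22 and 11.31 in the WT soleus. In the quadriceps it measured 10.87, 10.67 and 10.92 in KO mice and 10.94, 10.99 and 10.95 in WT mice. The KO arrays lay below all WT arrays of the same muscle, by a small margin. Where the probes of this set lie relative to the deleted part of the gene was not known here, and other cell types would keep the gene. The extent of Egln1 loss in the muscle fibres was therefore not known. Within KO mice Egln1 was 0.25 ± 0.06 higher in soleus (adjusted p = 0.0045), and this call was lost without KO animal 2 (0.18, adjusted p = 0.0511).

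The 4 markers of slow and fast muscle separated the KO muscles. Tnnc1, the slow and cardiac troponin C that binds calcium on the thin filament, measured 13.43, 13.35 and 13.43 in the KO soleus against 6.38, 8.62 and 6.46 in the KO quadriceps. It was 76.1-fold higher in soleus (6.25 ± 0.45 on the log2 scale, adjusted p = 1.98e-07). By animal the difference was 7.05, 4.73 and 6.97. The quadriceps values of 6.38 and 6.46 lay close to 6.19, the limit used to filter genes, so the fold is imprecise. Myh7, the slow myosin heavy chain, measured 13.36, 13.40 and 13.39 in soleus and 6.60, 9.39 and 6.87 in quadriceps. The soleus arrays of both genes lay close together, and the quadriceps of animal 2 stood above the other quadriceps arrays. The difference of Myh7 was 5.77 ± 0.55 (adjusted p = 2.62e-06). Mstn encodes myostatin, a secreted brake on muscle growth that fast muscle makes most. It measured 7.29, 7.33 and 7.61 in the KO soleus and 11.17, 10.92 and 11.05 in the KO quadriceps. Mstn was thus 12.4-fold lower in soleus (-3.64 ± 0.34, adjusted p = 2.27e-06), with no overlap.

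Myh4, the myosin heavy chain of the fast-glycolytic type IIb fibre, measured 12.53, 12.48 and 12.73 in the KO soleus and 14.09, 14.12 and 14.04 in the KO quadriceps. All 3 soleus arrays lay below all 3 quadriceps arrays. The difference of -1.50 was nevertheless not called (SE 0.65, adjusted p = 0.0836), because the fit takes its spread from all 4 groups and the WT soleus ranged widely, with 10.90, 13.31 and 8.99. With the KO arrays alone the SE of Myh4 was 0.0788 and its adjusted p 4.74e-06. Without WT soleus replicate 2 the adjusted p was 0.00183, and without WT soleus replicate 3 it was 0.00734. Myh4 missed the call in 21 of 25 alternative settings. In WT mice its difference was -2.94, and the test of whether the genotypes differed gave 1.44 ± 0.92 (unadjusted p = 0.143, adjusted p = 0.871).

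**Figure D1:**
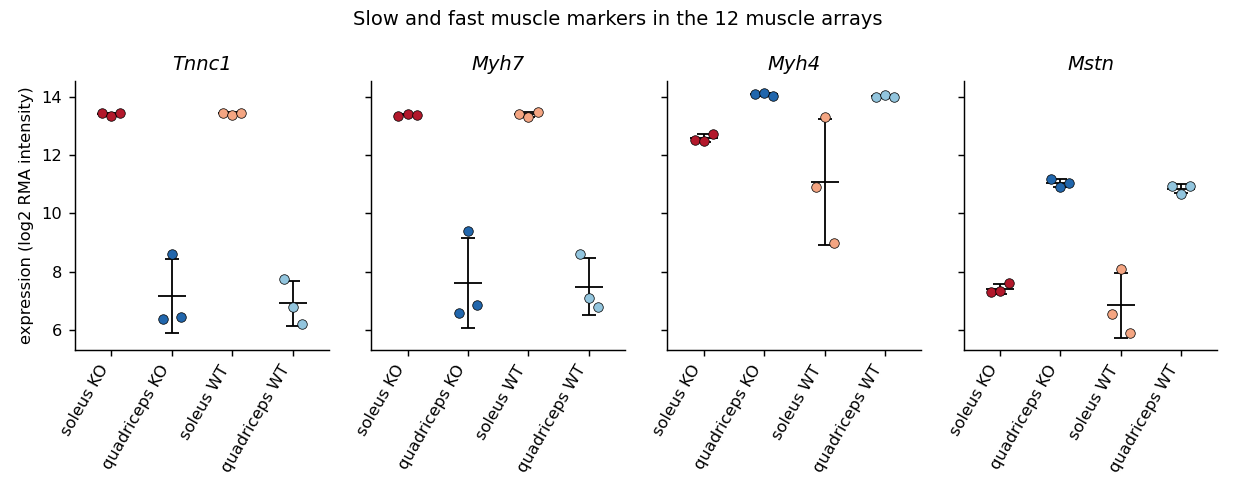
Expression of Tnnc1, Myh7, Myh4 and Mstn in the 12 muscle arrays (log2 RMA intensity), one point per array, with the group mean and SD as bars. Tnnc1 and Myh7 were near 13.4 in every soleus array, and Myh4 spread from 8.99 to 13.31 in the WT soleus but from 12.48 to 12.73 in the KO soleus.

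The slow sarcomere genes stood highest in the KO soleus as a group. All 13 listed genes were called higher, 11 of them by over 2-fold, with a median of 4.20 against 0.0094 over all genes tested. Tnni1 and Tnnt1, the slow troponins I and T, differed by 5.89 ± 0.27 and 5.64 ± 0.28. Myl3 and Myl2, the essential and regulatory light chains of slow myosin, differed by 5.47 ± 0.69 and 5.11 ± 0.52. Myl3 measured 13.67, 13.63 and 13.63 in soleus and 6.22, 9.97 and 8.33 in quadriceps, so its large SE came with the scatter of the quadriceps arrays. Tpm3, the slow tropomyosin, was 4.20 ± 0.17 higher. The Z-disc and stretch-associated genes Myoz2 (3.08 ± 0.25), Csrp3 (3.03 ± 0.15) and Ankrd2 (2.22 ± 0.14) followed. Smpx (0.38 ± 0.06) and Mybpc1, the slow myosin-binding protein C (0.92 ± 0.06), had the smallest differences of the list. Both were bright in the quadriceps as well, at 12.29 to 12.46 for Smpx and 12.56 to 12.63 for Mybpc1.

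The quadriceps of KO animal 2 gave the highest reading of its group for Tnnc1, Myh7, Myl3 and Myl2 alike. Without that array the differences were 6.99 ± 0.29 for Tnnc1, 6.65 ± 0.36 for Myh7, 6.37 ± 0.61 for Myl3 and 5.76 ± 0.48 for Myl2. The mean of the slow list ran from 8.54 to 9.93 over the KO quadriceps arrays and from 12.97 to 13.03 over the KO soleus arrays. The share of each fibre type in a sample was not measured.

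Beyond the sarcomere, the largest rises in the KO soleus included genes of other functions. Tecrl, an endoplasmic reticulum protein known from heart rhythm disease, measured 10.65, 10.80 and 10.09 in soleus and 4.41, 4.90 and 4.29 in quadriceps. Lgi1, a secreted protein best known from the brain, measured 10.75, 10.92 and 11.26 against 4.65, 5.59 and 4.97. The quadriceps values of both lay below the brightness limit of 6.19 used to filter genes. Against that limit Tecrl was at least 20.0-fold and Lgi1 at least 27.5-fold higher in soleus. Npr3, the natriuretic peptide clearance receptor, was 3.18 ± 0.14 higher, and Ostn, which encodes musclin, a peptide that binds this receptor, was 2.46 ± 0.12 higher. Bdh1, a mitochondrial enzyme of ketone body use, was 3.18 ± 0.18 higher. Myom3, the M-band myomesin of slow and intermediate fibres, was 3.38 ± 0.11 higher, and Myl6b, a light chain of slow muscle, was 3.38 ± 0.08 higher. Lrrc52, an auxiliary subunit of potassium channels, was 3.29 ± 0.19 higher.

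The largest falls were smaller in size than the largest rises. BC023105, annotated as a pseudogene, measured 6.46, 6.22 and 6.41 in the KO soleus and 11.76, 11.42 and 11.38 in the quadriceps (-5.15 ± 0.32). Mybph, a myosin-binding protein of fast muscle, differed by -3.61 ± 0.16. Tspan8, a tetraspanin of the cell membrane, lay below the brightness limit in soleus and was at least 11.0-fold lower there. Actc1, cardiac alpha actin, was -2.73 ± 0.22 lower, although its soleus level still reached 10.49 to 11.32. The metabolic genes Gpd2 (-2.69 ± 0.16) and Gpd1 (-2.47 ± 0.13) are the mitochondrial and cytosolic arms of the glycerol phosphate shuttle. Smox, spermine oxidase, differed by -2.60 ± 0.12, and Plcd4, a phospholipase C, by -2.69 ± 0.14. Pla2g7 (-2.60 ± 0.14), a secreted phospholipase, and Atp1b2 (-2.57 ± 0.14), a sodium pump subunit, were also in this group. The 3 animals gave the same sign for all of these 30 leading genes, which the rule that chose them already required.

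**Figure D2:**
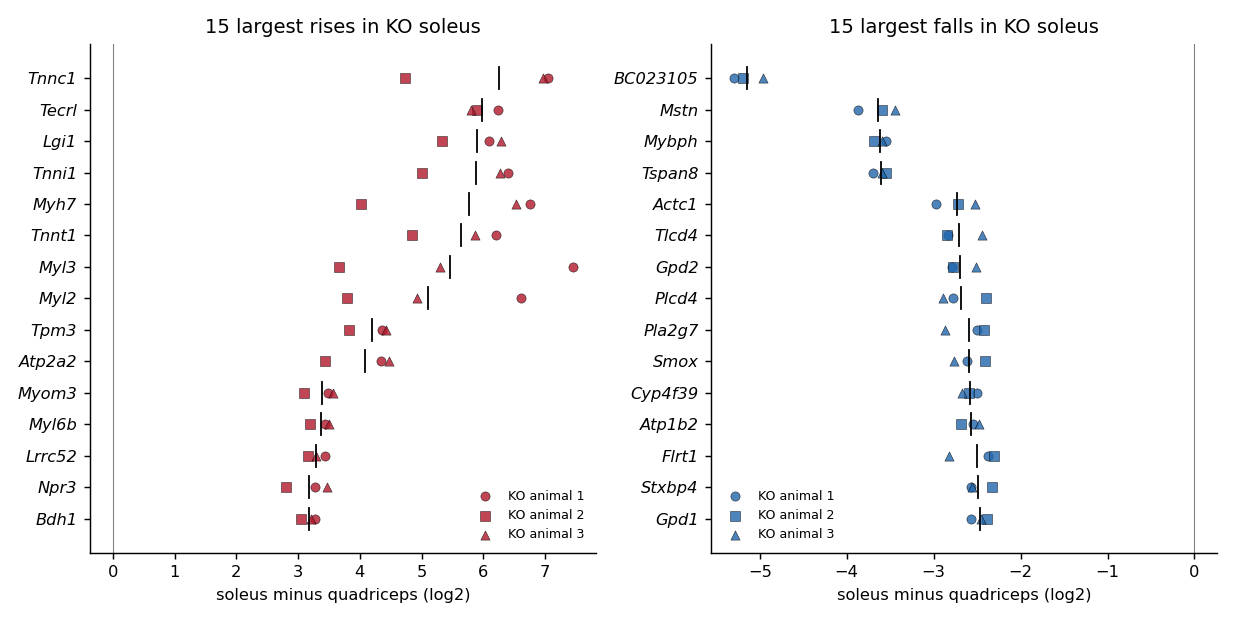
Soleus minus quadriceps (log2) in each of the 3 KO animals for the 15 largest rises and the 15 largest falls, one symbol per animal, with the fitted difference as a vertical line. KO animal 2 gave the smallest rise for Tnnc1, Myh7, Myl3 and Myl2, while the falls lay close together across animals.

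Upstream sequence is shown for 2 slow and 2 fast genes because a motif of muscle promoters occurs before the start of each. The motif is MCAT, CATTCC on either strand, which is bound by factors of the TEAD family, whose members Tead1 and Tead4 are described with the regulators. The sequences are from RefSeq on GRCm38.p6, 250 bases before the start of each gene in the direction of the gene, with MCAT in capitals (GGAATG where it lies on the opposite strand).
Tnnc1, chr14:31208062-31208311, plus strand: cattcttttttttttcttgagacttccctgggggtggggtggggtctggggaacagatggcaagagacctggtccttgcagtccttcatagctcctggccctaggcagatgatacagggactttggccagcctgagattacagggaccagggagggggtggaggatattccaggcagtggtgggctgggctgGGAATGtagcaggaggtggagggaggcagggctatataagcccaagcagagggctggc
Myl3, chr9:110763428-110763677, plus strand: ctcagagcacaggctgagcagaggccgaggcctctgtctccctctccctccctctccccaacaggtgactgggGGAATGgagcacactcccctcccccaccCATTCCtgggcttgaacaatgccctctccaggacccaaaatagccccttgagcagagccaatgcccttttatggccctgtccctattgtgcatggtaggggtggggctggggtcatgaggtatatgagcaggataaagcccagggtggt
Mybpc2, chr7:44524670-44524919, minus strand: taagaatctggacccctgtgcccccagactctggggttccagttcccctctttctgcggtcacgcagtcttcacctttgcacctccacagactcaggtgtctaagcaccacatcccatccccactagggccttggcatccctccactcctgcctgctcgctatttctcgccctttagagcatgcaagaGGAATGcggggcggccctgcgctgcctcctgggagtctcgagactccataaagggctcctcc
Myh4, chr11:67237562-67237811, plus strand: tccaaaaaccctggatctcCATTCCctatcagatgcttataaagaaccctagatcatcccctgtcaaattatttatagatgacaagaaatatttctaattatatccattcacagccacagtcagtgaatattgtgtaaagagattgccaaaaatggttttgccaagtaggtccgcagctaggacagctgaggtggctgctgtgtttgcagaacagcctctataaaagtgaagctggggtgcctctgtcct

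The motif lay 58 bases before the start of Tnnc1, 177 and 149 bases before Myl3, 62 bases before Mybpc2 and 231 bases before Myh4. It therefore occurred before slow genes that were higher in the KO soleus and before fast genes that were not. Shares of genes with a motif were counted over a longer window, which also holds the first bases after the start. Of the tested genes with a promoter in the table, 14.6% had MCAT in the longer window, against 16.6% of all genes in the table. The share was 20.7% of the 203 genes over 2-fold higher and 15.7% of the 159 genes over 2-fold lower. A gene with several windows counted if any of them held the motif, so these shares also depend on the number of windows. Counted per window, MCAT was in 15.4% for the higher genes, 12.5% for the lower genes and 12.5% for all tested genes. None of the motifs searched was found before Tnni1, Tnnt1, Mylpf, Mstn, Tecrl or Lgi1, apart from the common E-box, CANNTG, present before 68.5% of tested genes. The other motifs were MEF2 (by name, in 0.607% of tested genes), MEF3 (TCAGGTT, 4.02%), the oestrogen-related receptor element (TNAAGGTCA, 0.958%), the HIF core (ACGTG, 28.5%) and the MAF half-site (TGCTGAC, 4.62%). The HIF core overlaps an E-box where both read CACGTG. The HIF core was found in the longer window of 23.2% of genes over 2-fold higher and 22.6% of those over 2-fold lower. A match is a run of letters and says nothing of binding.

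The fast sarcomere genes were lower in the KO soleus as a group, by less on the log2 intensity scale than the slow genes were higher. They were bright in both muscles, with a list mean of 12.66 to 12.72 in the KO soleus and 13.29 to 13.35 in the KO quadriceps. Of 15 tested, 10 were lower, 2 higher and 3 not called, with a median of -0.53. Mybpc2, the fast myosin-binding protein C, measured 11.57, 11.28 and 11.51 in soleus and 13.79, 13.71 and 13.64 in quadriceps (-2.26 ± 0.28). Actn3, the fast-fibre alpha-actinin of the Z-disc, differed by -2.16 ± 0.34. Myoz3 (-1.30 ± 0.06) and Myoz1 (-1.08), Z-disc partners of calcineurin, and Mylk2 (-1.33 ± 0.09), the kinase of the fast regulatory light chain, were also lower. The fast troponins differed little in comparison with the slow ones, with -0.53 ± 0.06 for Tnnc2, -0.50 ± 0.05 for Tnni2 and -0.22 ± 0.04 for Tnnt3. The exceptions were Myh2, the myosin of the fast-oxidative IIa fibre, at 1.65 ± 0.15, and Actn2, the alpha-actinin of all fibres, at 1.23 ± 0.08. Myh1, the IIx myosin, was at 13.06 to 13.13 in soleus and 13.19 to 13.30 in quadriceps (-0.15 ± 0.06, adjusted p = 0.0613) and was not called. Myh1, Myh2 and Myh4 are near-identical copies, so that probes can share signal between them and their differences are uncertain to that degree.

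Genes of developing muscle did not follow a single direction. Of 7 tested, 3 were higher and 1 was lower (57.1% called, against 41.9% of all genes). Myh3, the embryonic myosin, measured 8.28, 8.43 and 8.81 in the KO soleus and 5.97, 6.29 and 6.04 in the quadriceps (2.40 ± 0.14). Tnnt2, cardiac troponin T (1.17 ± 0.26), and Myh8, perinatal myosin (0.58 ± 0.09), were higher, and Actc1 was the lower member.

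Calcium handling genes were mostly lower. Of 26 tested, 5 were higher and 18 lower in the KO soleus, with a median of -0.31. Slow or cardiac forms were among the higher members. Atp2a2, the slow calcium pump SERCA2, measured 13.77, 13.78 and 13.84 in soleus and 9.42, 10.35 and 9.36 in quadriceps (4.09 ± 0.18, 17.0-fold). Casq2, the cardiac calcium store protein, was 2.77 ± 0.19 higher. Phospholamban (Pln, 1.16 ± 0.19) and sarcolipin (Sln, 1.07 ± 0.16) are small inhibitors of the pump, and Stim1 (0.27), the sensor of store filling, completed the 5. Their fast counterparts were lower by less, with Casq1 at -0.52 ± 0.07 and Atp2a1, SERCA1, at -0.26 ± 0.05. Parvalbumin (Pvalb), the calcium buffer that speeds relaxation of fast fibres, measured 12.76, 12.57 and 12.57 in soleus and 14.18, 14.16 and 14.10 in quadriceps (-1.52 ± 0.25). The junctional protein Jph2 (-1.45 ± 0.09), the voltage sensor Cacna1s (-0.55 ± 0.06) and the release channel Ryr1 (-0.36 ± 0.05) were lower too. So were the calcium-dependent kinases Camk2a (-1.14 ± 0.06) and Camk2g (-1.02).

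**Figure D3:**
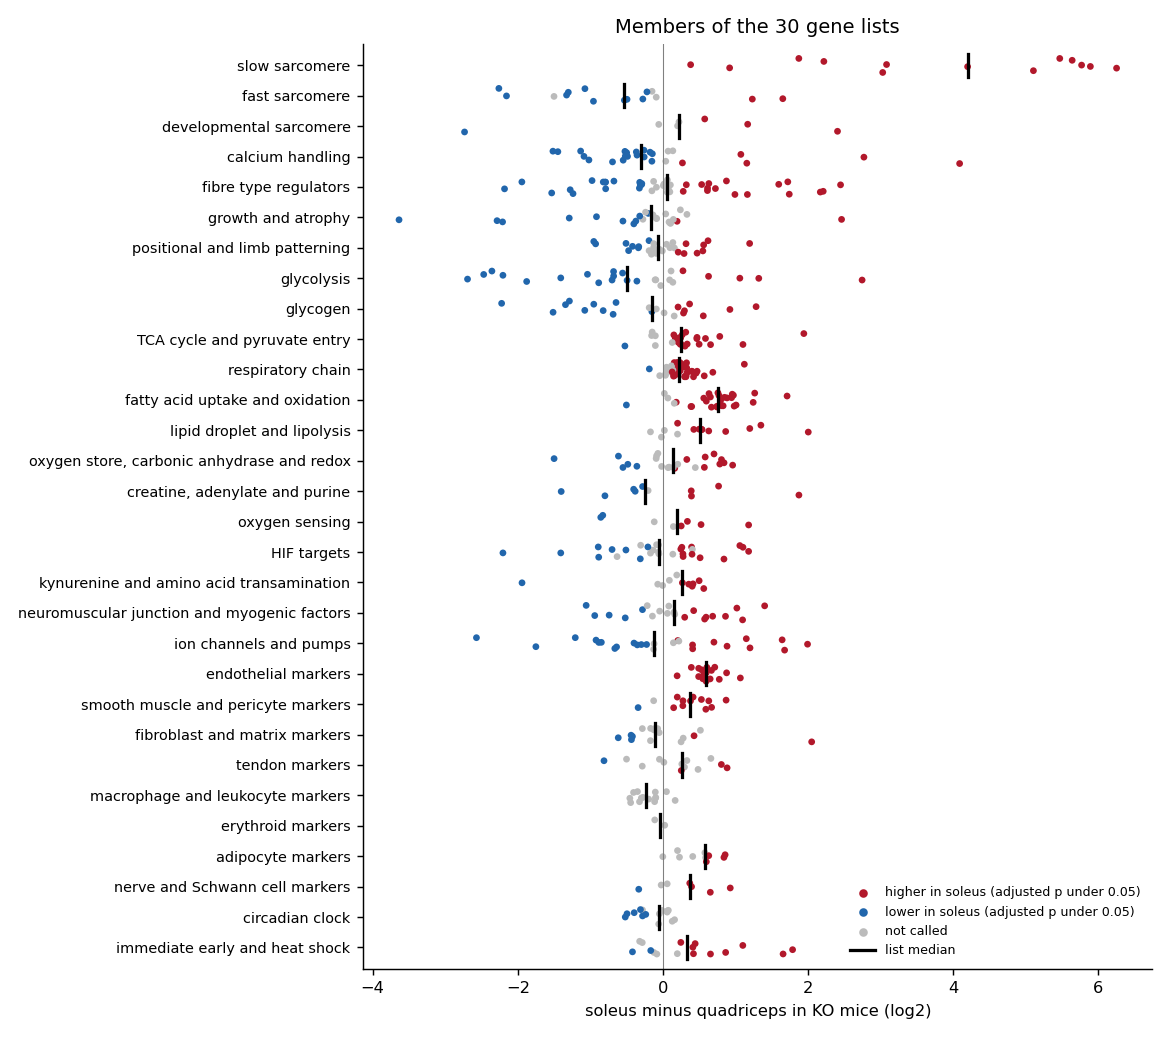
Soleus minus quadriceps in KO mice (log2) for the tested members of the 30 gene lists, one point per gene, coloured by call, with the list median as a black bar. The slow sarcomere median was 4.20 and the fast sarcomere median -0.53, and the fatty acid list lay mostly above 0.

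Regulators known for setting fibre type were split evenly by direction, as 16 of 44 were higher and 16 lower in the KO soleus (median 0.05). The higher regulators included nuclear receptors of oxidative metabolism. Esrrg, an oestrogen-related receptor, measured 10.16, 10.16 and 10.51 in soleus and 7.53, 8.03 and 7.94 in quadriceps (2.45 ± 0.13). Esrrb, its relative, was 2.21 ± 0.13 higher, or at least 4.02-fold because its quadriceps level lay below the brightness limit. Ppara, the fatty acid receptor (1.72 ± 0.10), and Ppargc1a, the coactivator PGC-1alpha of mitochondrial genes (0.99 ± 0.12), were higher with them. Prox1, a transcription factor tied to the slow programme, was 2.17 ± 0.13 higher. The calcineurin target and inhibitor genes Rcan1 (1.74 ± 0.11) and Rcan2 (1.59 ± 0.06) were higher, whereas the calcineurin subunits Ppp3ca (-0.98 ± 0.05) and Ppp3cb (-0.82 ± 0.08) were lower. The TEAD partner Vgll2 (1.16 ± 0.12) and the factors Tead1 (0.61 ± 0.06) and Tead4 (0.61 ± 0.07) were also higher.

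Among the lower regulators were factors of the fast programme. Maf, a large MAF factor of fast-glycolytic fibres, measured 9.26, 9.25 and 8.99 in the KO soleus and 11.42, 11.21 and 11.42 in the quadriceps (-2.18 ± 0.10). Mafa, of the same family, differed by -1.28 ± 0.08. Eya4, a homeodomain cofactor, differed by -1.95 ± 0.08. Sox6, a repressor of slow genes (-1.24 ± 0.07), Tbx15, a factor of glycolytic fibres (-0.79 ± 0.08), and the nuclear receptor Nr4a1 (-1.53 ± 0.09) were lower. None of these arrays overlapped between the muscles. Nfatc1, the calcineurin-activated factor whose activity is set by its place in the cell, was not called (-0.09 ± 0.07, adjusted p = 0.338).

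Glycolysis genes were mostly lower and respiratory genes mostly higher in the KO soleus. Of 25 tested genes of glycolysis and its shuttles, 14 were lower and 5 higher, with a median of -0.49. Slc16a3, the lactate exporter MCT4, measured 9.16, 9.25 and 9.18 in soleus and 11.61, 11.63 and 11.44 in quadriceps (-2.36 ± 0.08). Pfkfb3 (-2.21 ± 0.27) and Pfkfb4 (-1.41 ± 0.11) make the activator of phosphofructokinase, and Fbp2 (-1.88 ± 0.14) is the muscle fructose bisphosphatase. Enzymes of the main path were lower by less, among them Pgk1 (-0.89 ± 0.06), Ldha (-0.70 ± 0.05), Pkm (-0.68 ± 0.06) and Pfkm (-0.56 ± 0.05). The higher members included Ldhb, the lactate dehydrogenase subunit of oxidative tissue, which measured 12.25, 12.25 and 12.30 in soleus and 9.29, 9.38 and 9.90 in quadriceps (2.74 ± 0.14). Slc16a1, the lactate importer MCT1 (1.32 ± 0.07), and Slc2a1, the basal glucose transporter GLUT1 (1.06 ± 0.10), were higher as well.

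Glycogen genes showed the kinase of glycogen breakdown low in soleus. Of 21 tested, 10 were lower and 7 higher. Phosphorylase kinase subunits Phkg1 (-2.22 ± 0.09), Phkb (-1.51 ± 0.08) and Phka1 (-1.29 ± 0.08) were lower, as was muscle phosphorylase itself, Pygm (-0.65 ± 0.05). Pgm1, which links glycogen to glycolysis, differed by -1.34 ± 0.07. On the side of synthesis, the branching enzyme Gbe1 was 1.28 ± 0.08 higher and glycogen synthase Gys1 was 0.28 ± 0.06 higher.

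Of 27 tested genes of the citric acid cycle and pyruvate entry, 21 were higher and 1 was lower, with a median of 0.24. Idh2, the mitochondrial NADP-dependent isocitrate dehydrogenase, measured 13.04, 12.97 and 13.10 in the KO soleus and 11.00, 10.90 and 11.38 in the quadriceps (1.94 ± 0.10). Pdk1 (1.10 ± 0.07) and Pdk4 (0.66 ± 0.09), kinases that close pyruvate dehydrogenase, were higher, and its phosphatase Pdp1 was the lower gene (-0.53 ± 0.07). Citrate synthase, Cs, was 0.23 ± 0.05 higher. In the respiratory chain 33 of 42 genes were higher and 1 lower, but the median was only 0.23. Cox8a (0.69 ± 0.04) and Cox6a2 (0.57 ± 0.05), subunits of cytochrome oxidase, were typical of its larger members. Ndufb3 of complex I had the largest difference, 1.12 ± 0.10, and Ndufa2 was the lower gene at -0.19.

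Genes of fatty acid uptake and oxidation were higher in the KO soleus in 25 of 29 cases, with 1 lower and a median of 0.76. Lpl, the lipase that frees fatty acids at the vessel wall, measured 12.76, 12.74 and 12.79 in soleus and 10.80, 11.09 and 11.27 in quadriceps (1.71 ± 0.11). Cd36, the fatty acid carrier of the membrane, differed by 1.24 ± 0.05. Enzymes of each step of beta-oxidation were higher, among them Acadl (0.98 ± 0.06), Acadm (0.88 ± 0.07), Hadhb (0.97 ± 0.07) and the electron acceptor Etfdh (1.01 ± 0.06). Ucp3, an inner membrane carrier, was the lower gene (-0.50 ± 0.16), and that call was lost in 5 of 25 alternatives. Of 14 lipid droplet genes, 10 were higher and none lower. Dgat2, which makes triglyceride, measured 11.84, 11.86 and 11.84 against 9.87, 9.79 and 9.87 (2.00 ± 0.11). The lipases Mgll (1.35 ± 0.10) and Lipe (0.63 ± 0.09) and the droplet coat Plin5 (0.86 ± 0.08) were higher as well.

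**Figure D4:**
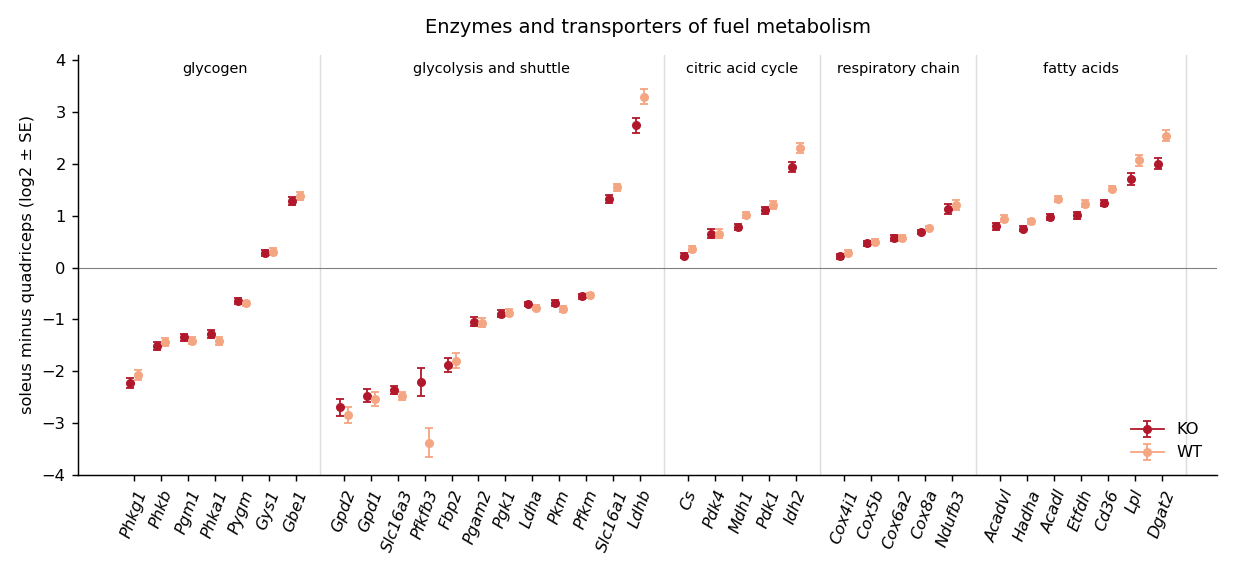
Soleus minus quadriceps (log2 ± SE) for selected enzymes and transporters in KO mice (dark) and WT mice (light), grouped by pathway. Most KO and WT points lie close together, and the widest gap is for Pfkfb3, at -2.21 in KO and -3.37 in WT mice.

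Oxygen stores and related enzymes were mixed, with 9 of 23 higher and 5 lower (60.9% called, against 41.9% of all genes). Myoglobin, Mb, measured 14.04, 14.08 and 14.17 in the KO soleus and 13.21, 13.54 and 13.43 in the quadriceps (0.70 ± 0.08). Catalase (Cat) was 0.84 ± 0.06 higher, and Gpx3, a secreted glutathione peroxidase, was -1.50 ± 0.14 lower. Of 10 genes of creatine and adenylate metabolism, 4 were higher and 5 lower (90% called). Mitochondrial creatine kinase Ckmt2 was 0.77 ± 0.05 higher and Ampd3 1.87 ± 0.11 higher, while the muscle AMP deaminase Ampd1 differed by -0.80 ± 0.07.

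Of the oxygen sensors, Egln2 and Egln3 moved apart between the KO muscles. Egln3 measured 11.44, 11.08 and 11.73 in soleus and 10.16, 10.02 and 10.53 in quadriceps (1.18 ± 0.17, adjusted p = 9.69e-05). Egln2 measured 9.29, 9.30 and 9.36 against 10.18, 10.23 and 10.12 (-0.86 ± 0.05). The factor-inhibiting hydroxylase Hif1an was -0.83 ± 0.09 lower. The HIF subunits Hif1a (0.34 ± 0.05) and Epas1 (0.52 ± 0.07) were both higher in soleus. Epas1 is strong in endothelium, whose markers were also higher in soleus, and their part in its difference was not tested. Of 8 tested genes of this list, 4 were higher and 2 lower (75% called, against 41.9% of all genes).

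Known HIF targets did not stand together. Of 29 tested, 11 were higher and 8 lower in the KO soleus, with a median of -0.06. The share called was 65.5%, against 41.9% of all genes. Pdk1 (1.10), Slc2a1 (1.06) and Bnip3 (0.84 ± 0.08), a mitophagy receptor, were higher. Pgk1, Ldha, Pfkfb3 and Pfkfb4, all glycolytic, and Stc2 (-0.89 ± 0.12), a secreted glycoprotein, were lower. Vegfa, the vessel growth factor, measured 11.26, 11.18 and 11.48 in soleus and 10.99, 11.03 and 11.08 in quadriceps (0.27 ± 0.08, adjusted p = 0.0104). The call for Vegfa was lost in 2 of 25 alternatives. Of 11 genes of kynurenine and amino acid transamination, 6 were higher and 1 lower (63.6% called). Kyat1 (0.27 ± 0.05) and Kyat3 (0.36 ± 0.08), which turn kynurenine into kynurenic acid, and Got2 (0.40 ± 0.04), which can do so as well, were all higher. Gpt2, the mitochondrial alanine transaminase, measured 9.09, 8.93 and 9.26 against 11.18, 10.91 and 11.02 and was the lower gene (-1.94 ± 0.12).

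Growth genes were lower more often than higher, at 10 against 2 of 24. The share called was 50% against 41.9% of all genes, with a list median of -0.17. Besides Mstn, its close relative Gdf11 was lower (-0.92 ± 0.10), as were the activin receptors Acvr2a (-0.55) and Acvr2b (-0.40). Ky, a protein needed for muscle maintenance, differed by -2.29 ± 0.10, and Igfbp5, an IGF-binding protein, by -1.29 ± 0.13. Mss51, a mitochondrial protein of fast muscle, differed by -2.21 ± 0.69, and that call was lost in 6 of 25 alternatives. The ubiquitin ligases of atrophy, Trim63 (-0.24 ± 0.15, adjusted p = 0.212) and Fbxo32 (0.04 ± 0.13, adjusted p = 0.853), were not called.

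Ion transport genes were divided, with 10 of 26 higher and 12 lower (84.6% called, against 41.9% of all genes). Genes named for beta subunits of the sodium pump moved in opposite directions. Atp1b1 measured 12.84, 12.84 and 13.04 in the KO soleus and 11.16, 11.35 and 11.28 in the quadriceps (1.64 ± 0.08), and Atp1b4 was 1.68 ± 0.10 higher, against -2.57 ± 0.14 for Atp1b2. The pump regulator Fxyd6 was 1.99 ± 0.10 higher. The potassium channel genes Kcnc4 (-1.75 ± 0.14) and Kcng4 (-1.21 ± 0.13), the chloride channel Clcn1 (-0.92 ± 0.06) and the water channel Aqp4 (-0.88 ± 0.14) were lower. The calcium-activated potassium channels Kcnma1 (1.20 ± 0.06) and Kcnn3 (1.15 ± 0.07) were higher.

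At the neuromuscular junction 9 of 21 genes, myogenic factors included, were higher and 5 lower (66.7% called, against 41.9% of all genes). Musk, the receptor kinase that gathers acetylcholine receptors, measured 10.83, 11.03 and 11.07 in soleus and 9.45, 9.45 and 9.83 in quadriceps (1.40 ± 0.12). The receptor subunits Chrna1 (1.02 ± 0.13) and Chrnd (0.86 ± 0.14) were higher, and acetylcholinesterase, Ache, was lower (-0.94 ± 0.12). The myogenic factors Myod1 (-0.74 ± 0.12) and Myf6 (-0.52 ± 0.07) were lower.

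Positional genes, which mark where in the limb a muscle formed, also differed. Of 28 tested, 8 were higher and 8 lower, so a share of 57.1% was called against 41.9% of all genes. Tbx3 measured 8.66, 8.56 and 8.85 in the KO soleus and 7.47, 7.54 and 7.47 in the quadriceps (1.19 ± 0.07). Hoxc10 measured 9.10, 9.19 and 9.21 against 10.11, 10.12 and 10.13 (-0.95 ± 0.06). Hoxc8 was lower (-0.93 ± 0.08), while Hoxc11 (0.56 ± 0.07) and Tbx4 (0.55 ± 0.08) were higher. All of these are transcription factors of body and limb pattern.

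Markers of other cells in the muscle differed in part. All 16 endothelial markers were higher in the KO soleus, with a median of 0.59, and their mean level ran from 9.02 to 9.10 in soleus and from 8.32 to 8.54 in quadriceps. Emcn, a surface sialomucin of capillaries, measured 10.19, 10.20 and 9.86 against 9.09, 9.14 and 8.81 (1.07 ± 0.10). Kdr, the main VEGF receptor (0.88 ± 0.09), and Pecam1, a junction protein (0.78 ± 0.09), followed. In bulk tissue more cells of a type and more RNA per cell cannot be told apart. Of 13 smooth muscle and pericyte markers, 11 were higher and 1 lower (median 0.38), led by Cspg4 (0.87 ± 0.09) and Tagln (0.67 ± 0.10). Of 10 adipocyte markers 4 were higher (40% called against 41.9% of all genes). These were Adig (0.86 ± 0.08), Pparg (0.84 ± 0.08), Lipe and Fabp4 (0.60 ± 0.09), while Adipoq (0.58) was not called. Lipe and Fabp4 stand in the lipid lists as well, and the part of fat cells in those lists was not tested. Of 7 nerve and Schwann cell markers 4 were higher and 1 lower (71.4% called), with the myelin gene Pmp22 at 0.93 ± 0.10.

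Connective tissue markers varied most among the KO soleus arrays. The mean of 16 fibroblast markers ran from 9.38 to 10.26 in the KO soleus and from 9.64 to 10.14 in the KO quadriceps. Of these, 2 were higher and 4 lower (37.5% called against 41.9% of all genes, median -0.12). Without soleus replicate 3 the counts were 4 and 2 and the median 0.14. Postn, a matrix protein, measured 10.98, 11.31 and 9.74 against 8.65, 9.67 and 7.56 (2.05 ± 0.38). Of 13 tendon markers 3 were higher and 1 lower (30.8% called), and without soleus replicate 3 the counts were 6 and 0. Tnmd, a tendon membrane protein, measured 10.22, 10.62 and 8.84 in soleus and 8.92, 9.65 and 8.46 in quadriceps. Its difference (0.88 ± 0.33, adjusted p = 0.0488) missed the call in 16 of 25 alternatives. None of 14 macrophage and leukocyte markers and none of 2 erythroid markers was called by limma. The largest of the former was Cd163 at -0.46 ± 0.18 (adjusted p = 0.0583), and Slc4a1 of red cells was at -0.11 ± 0.17.

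Stress genes were called more often than clock genes, whose share called was near that of all genes. Of 16 immediate early and heat shock genes, 9 were higher and 2 lower (68.8% called). Hspb7, a small heat shock protein of heart and muscle, measured 13.49, 13.48 and 13.72 in the KO soleus and 11.48, 12.30 and 11.95 in the quadriceps (1.66 ± 0.14). Hspa1a, inducible HSP70, was 1.79 ± 0.11 higher, although its near-identical copy Hspa1b can share its signal. Hspb1 (0.86 ± 0.09) and the stress factor Atf3 (1.10 ± 0.21) were higher too. Of 15 clock genes 6 were lower and none higher, led by Bhlhe41 (-0.52 ± 0.11) and Tef (-0.50 ± 0.07). This is 40% called against 41.9% of all genes tested, with a list median of -0.06. The calls for Per2, Dbp and Hlf were lost in 10, 11 and 7 of 25 alternatives.

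Set beside the WT mice, the muscle difference of the KO mice was nearly the same gene by gene. WT and KO comparisons share no arrays, though they share the estimate of spread. In WT mice 6085 genes were called (45.7%) and 561 over 2-fold (4.21%). Of the KO calls 84.3% were also called in WT mice in the same direction, as were 77.3% of the WT calls in KO mice. Of genes over 2-fold, 432 were shared, 91.3% of the KO list and 77.0% of the WT list. All 473 such genes of KO mice had the same sign in WT mice. Across the 13319 genes the differences correlated with Pearson r = 0.963 and Spearman rho = 0.895, as a description, since genes are not independent. The median over the slow sarcomere list was 4.20 in KO and 4.37 in WT mice, and over the fast list -0.53 and -0.50.

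The test of the difference itself, KO minus WT, called no gene with limma at an adjusted p under 0.05 (0% of 13319). At an unadjusted p under 0.05 it held 851 genes (6.39%). The median SE of this difference was 0.0997, against 0.0705 for the KO difference. Small genotype effects on the muscle difference were therefore not detectable one gene at a time. How much Egln1 the fibres of KO mice had lost was not known either. Among genes over 2-fold in WT mice, 449 of 561 had a smaller difference in KO mice, with a median ratio of 0.908. Choosing genes by their size in WT mice favours that direction. Among the 473 genes chosen by size in KO mice, 153 were smaller in WT mice and the median ratio of WT to KO was 1.06. Both ways of choosing thus gave a somewhat wider difference in WT mice, with no test attached.

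Of the fatty acid list, 14 of 29 members had an unadjusted p under 0.05 for KO minus WT with limma, and none passed the adjusted test. Over all genes 851 of 13319 (6.39%) had such a p. The fatty acid list had the highest count of any list, and the next was 6 of 26 for ion channels and pumps. It is thus an extreme among lists that were chosen with earlier results of these data known. Whether the list as a whole differed was not tested. The median of KO minus WT was -0.18 over the fatty acid list, against 0.018 over all genes. Acadl, which starts beta-oxidation of long chains, was 0.98 in KO and 1.32 in WT mice (unadjusted p = 0.00192, adjusted p = 0.531). Its quadriceps arrays read 10.83, 10.97 and 11.01 in KO and 10.73, 10.66 and 10.57 in WT mice, without overlap, and its soleus arrays overlapped. Cd36 was 1.24 in KO and 1.52 in WT mice (unadjusted p = 0.00255, adjusted p = 0.57). Its quadriceps arrays read 11.60, 11.57 and 11.72 in KO and 11.32, 11.33 and 11.33 in WT mice.

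The 5 smallest p-values for the genotype difference, none of which passed adjustment, belonged to Kif5b, Polk, Tnfsf10, 1110002L01Rik and Rspo3. Kif5b, a kinesin motor chain, measured 10.46, 10.61 and 10.52 in the KO soleus and 10.90, 10.89 and 10.92 in the KO quadriceps (-0.38 ± 0.06). In WT mice it measured 11.26, 11.13 and 11.10 in soleus and 10.79, 10.95 and 10.93 in quadriceps (0.27), so the sign was turned (adjusted p of the difference 0.0525). Polk, a DNA repair polymerase, was -1.02 ± 0.09 in KO and -1.87 in WT mice (adjusted p = 0.109). Rspo3, an enhancer of Wnt signalling, was 2.56 ± 0.08 in KO and 3.19 in WT mice (adjusted p = 0.243). Tnfsf10, the death ligand TRAIL, was -0.29 ± 0.10 in KO and -1.11 in WT mice (adjusted p = 0.198). The uncharacterised 1110002L01Rik was 0.01 ± 0.09 in KO and -0.72 in WT mice, and its KO value changed sign when KO animal 1 was left out.

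**Figure D5:**
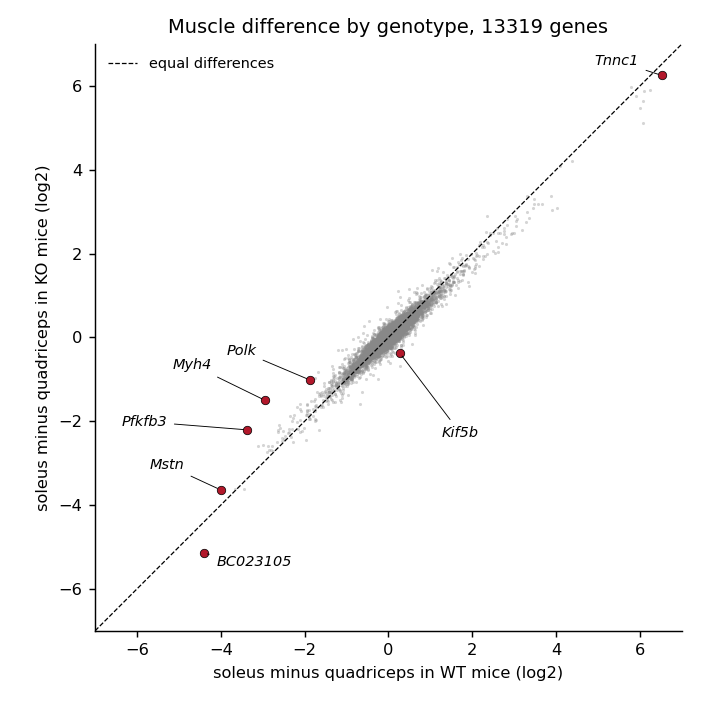
Soleus minus quadriceps (log2) in KO mice against the same difference in WT mice, one point per gene for 13319 genes, with the line of equal differences. The points follow the line (r = 0.963), and Kif5b lies at -0.38 in KO and 0.27 in WT mice.

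The array also reads microRNA genes, of which 101 were tested; 23 were higher and 6 lower in the KO soleus (28.7% called, against 41.9% of all genes). These probe sets read the transcript of the gene and need not follow the mature RNA, and the genes named here were chosen after their values were seen. The mature sequences of 3 seed families are shown because family members moved together or apart, from RefSeq on GRCm38.p6 with the seed, bases 2 to 8, in capitals.
miR-365-3p, from both Mir365-1 and Mir365-2: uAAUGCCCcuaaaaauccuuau
miR-181a-5p, from Mir181a-2: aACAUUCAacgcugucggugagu
miR-181b-5p, from Mir181b-2: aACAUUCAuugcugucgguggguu
miR-30a-5p, from Mir30a: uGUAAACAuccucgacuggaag
miR-30c-5p, from Mir30c-2: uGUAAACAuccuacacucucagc
miR-30e-5p, from Mir30e: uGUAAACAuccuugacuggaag

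Both genes that give the identical miR-365-3p were called, in opposite directions. Mir365-1 measured 7.13, 7.08 and 7.45 in the KO soleus and 6.36, 6.10 and 6.29 in the quadriceps (0.97 ± 0.09, adjusted p = 2.3e-06). Mir365-2 measured 6.61, 6.27 and 6.25 against 7.48, 7.16 and 7.55 (-1.02 ± 0.10, adjusted p = 4.85e-06). Several of the dimmer arrays of both genes lay near the brightness limit of 6.19. In WT mice the difference was only 0.28 for Mir365-1 and was -0.87 for Mir365-2. With limma, KO minus WT was 0.69 for Mir365-1 (unadjusted p = 0.000146, adjusted p = 0.257) and -0.15 for Mir365-2 (adjusted p = 0.944). The neighbour of Mir365-2 on chromosome 11, Mir193a, was lower as well (-0.47 ± 0.10), whereas Mir365-1 lies on chromosome 16. Mir181a-2 (-1.0 ± 0.10) and Mir181b-2 (-1.02 ± 0.12), neighbours on chromosome 2 with the seed ACAUUCA, were lower together. In contrast Mir181c and Mir181d, other genes named for this family, were not called (0.05 ± 0.07 and 0.12 ± 0.09). Genes of the seed GUAAACA were higher, with 0.52 ± 0.10 for Mir30a, 0.52 ± 0.06 for Mir30c-2 and 0.43 ± 0.07 for Mir30e.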

How the data were processed

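The deposited values are log2 intensities that the authors summarised with RMA, per the submitters' processing notes, from Affymetrix whole-transcript arrays of total RNA. No aligner applies, and the array number, 3 per group, limits the precision. Of 35556 probe sets, 21789 carried 1 gene in the platform annotation, 1621 several and 12146 none; 21698 matched a current symbol. Each gene was its brightest probe set, and 13319 of 19938 genes with a mean over the 12 muscle arrays at or above the 40th percentile of probe sets (6.19) were tested. limma 3.58.1 in R 4.3.3 fitted 4 group means on the 12 arrays with animal number as a random block (duplicateCorrelation, correlation 0.17). The pairing comes from animal numbers in the labels; same-animal arrays correlated at -0.000815, 0.378 and 0.347 in KO and 0.209, 0.2 and 0.0873 in WT mice after group means were removed. Adjusted p-values are Benjamini-Hochberg over all tested genes, two-sided. The script was tested on simulated data.

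Named genes were the 15 largest rises and 15 largest falls without overlap (predicted and small RNA genes aside), oxygen sensing and kynurenine genes, up to 6 called members of each of 30 lists (614 genes, 581 measured), the markers, and the 5 smallest p-values of the genotype difference; further list members and the microRNA genes were named after their values were seen. The members and lists were chosen with earlier results of these data known. "At least" folds set the brighter group's mean against the brightness limit where all dimmer arrays lay under it. Alternatives covered the block, filter, probe set rule, prior, array weights, scaling and each array or animal left out. The p-values measure the spread between animals of these groups.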

Additional observations from a re-analysis of the deposited data

Results flagged for a closer look

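For the genes that follow, all 3 KO animals differed between soleus and quadriceps in 1 direction and all 3 WT animals in the other; 124 of the 13319 genes (0.931%) had this pattern. The KO minus WT difference of Kif5b was -0.65 (adjusted p = 0.0525 with limma), and that of Hoxd8, a positional factor, was -0.58 (adjusted p = 0.641). Further differences were 0.18 for Asph, a protein of the calcium release site (adjusted p = 0.74), -0.16 for Sucla2, a subunit of succinyl-CoA ligase (adjusted p = 0.844), -0.21 for Cd3e, a T cell receptor subunit (adjusted p = 0.736), and 0.18 for Cry1, a clock repressor (adjusted p = 0.9). Aph1b, a gamma-secretase subunit, Dusp10, a MAP kinase phosphatase, and Zhx2, a transcriptional repressor, were called higher in KO soleus and lower in WT soleus, with KO minus WT differences of 0.35 (adjusted p = 0.312), 0.86 (adjusted p = 0.38) and 0.33 (adjusted p = 0.257). None passed the test of the difference.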

How the results depend on the processing

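Every alternative kept the KO count within 1.5 times of 5578, at 4428 with KO arrays alone and 5891 with array weights as the extremes of the planned settings, 4069 at an adjusted p under 0.01, and 4504 to 5587 with an array or animal left out. The count over 2-fold ran from 425 to 485 over the settings and from 452 to 510 with an array or animal left out. Without the replicate block by animal 5038 KO genes were called, and with it as a fixed term, fitted on the 6 KO arrays, 4939; among the 3 comparisons' counts this moved none past 1.5 times. Myh4 was called on the 6 KO arrays with the fixed block (adjusted p = 1.79e-06 with limma) and without it (4.74e-06), and was not called on the 12 arrays without the block (0.117).

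The count for KO minus WT was 0, and it was 1 with the filter at the 60th percentile or quantile normalization repeated, 2 with the trended, robust prior or with array weights, and 0 to 4 with an array or animal left out; the largest, 4, came without WT soleus replicate 3. It needs both genotypes, so arrays of 1 genotype gave no value. The WT count ran from 5201 to 6268 with an array or animal left out. The difference of Egln1 ran from 0.178 to 0.299. Centring moved the share of higher among KO calls from 52.2% to 46.8%.

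Among the 185 genes named by the rule and the lists' medians, signs turned for 1110002L01Rik, which was not called (-0.0131 centred, and -0.108 to 0.135 with an array or animal left out), for Slc4a1 (-0.223 to 0.00947 with an array or animal left out, the higher without KO quadriceps replicate 2) and for the ion channel median (0.00711 with the filter at the 60th percentile). Of 181 called genes named, 164 were called under every alternative that tested them and 17 lost the call in at least 1. Of the other genes the text gives values for, Mir181d, Fbxo32, Cry1 and Ddit4, none of them among the 5578 KO calls, also turned sign with an array or animal left out. The counts of the lists with few called members moved most. The causes were not tested. With 3 animals a group and a median SE of 0.0997 for KO minus WT, small differences between genotypes were beyond reach gene by gene.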

Other observations

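A few genes stood on different sides of the threshold in the genotypes without a difference that passed the test. Cxcl13, a B cell chemokine, measured 6.27, 6.11 and 6.41 in the KO soleus and 6.82, 6.79 and 8.18 in the KO quadriceps, so quadriceps replicate 3 carried much of its difference of -1.0 ± 0.29. In WT mice it was -0.25 (adjusted p of KO minus WT 0.831). Nnat, neuronatin, an endoplasmic reticulum protein, was 1.25 ± 0.42 in KO and 0.81 in WT mice. Phospholamban, Pln, was 1.16 in KO and 0.49 in WT mice (unadjusted p = 0.0291, adjusted p = 0.752), with 1 WT quadriceps array at 7.85 and the others at 6.84 and 6.77. On the other side, Ddit4, a stress-induced inhibitor of mTOR, was -0.31 ± 0.26 in KO and -1.21 in WT mice (adjusted p of KO minus WT 0.754). Klf10, a zinc finger factor, was -0.28 ± 0.14 in KO and -1.0 in WT mice (adjusted p of KO minus WT 0.57). These genes were chosen after their values were seen.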
